A study of Mus musculus with 4 samples.

Results

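The interferon-induced transmembrane (IFITM) genes and Bst2, which encodes tetherin, were examined as a group of 7 antiviral membrane protein genes. The members were Ifitm1, Ifitm2, Ifitm3, Ifitm5, Ifitm6, Ifitm7 and Bst2, taken as the probes that the platform annotation assigns to one of these symbols and no other. A probe of this kind existed for 6 of the 7, out of 22180 genes on the array. Ifitm7 was present on 2 probes that the annotation also assigns to Bmerb1, its neighbour in the gene order, and neither probe was taken to measure Ifitm7. The RNA came from B16-OVA cells, a melanoma line of the mouse that carries an ovalbumin transgene. The 4 arrays formed 2 groups of 2: mock transfected cells, and cells given AT90ES, which the labels link to a 90mer of double-stranded DNA delivered by Lipofectamine 2000, a cationic lipid, over 6 hours. The treatment text was identical for both groups and does not say what was given to the mock cells, so the DNA and the lipid cannot be told apart as sources of a difference. No label ties the 2 arrays of a group to separate cultures. The spread behind each p-value is therefore that between these arrays and may be technical.

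IFITM proteins are small membrane proteins that hinder the fusion of viral envelopes with host membranes, so that virus particles are held back at the cell surface or in endosomes. Tetherin acts at the other end of the viral life cycle: it is anchored in the membrane at both of its ends and holds newly budded enveloped particles on the cell that made them. Interferon raises many of these genes through a factor complex, ISGF3, that includes STAT2 and IRF9 and binds a DNA element called the interferon-stimulated response element (ISRE). IFITM5 is the exception by its known biology, as a protein of bone-forming cells.

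The start regions of the members are shown first, because members with and without ISRE letters can then be set beside their values. The sequences were RefSeq windows of build GRCm38.p6, from 250 bases before to 50 bases after each gene's annotated start, and all 7 members had 1 such window. The letters GAAANNGAAA, an ISRE core, were searched on both strands and were found in 3 of the 7 windows and in 3.44% of all 32851 windows. The longer form GAAANNGAAACT, every match of which is also a match of the core, was found in 2 of the 7, Ifitm3 and Bst2, and in 0.271% of all windows. The letters TTCNNNGAA, the form of the gamma-activated site (GAS), were found in 3 of the 7 (Ifitm3, Ifitm6 and Bst2) and in 8.30% of all windows. Sequences are printed 5′ to 3′ along the gene, with matches of GAAANNGAAA in capitals. The first 2 are the 150 bases before the start of Bst2 (chr8:71537473-71537622, minus strand) and of Ifitm3 (chr7:141010745-141010894, minus strand). The third is the 29 bases that hold both matches just after the start of Ifitm3 (chr7:141010714-141010742, minus strand), in the first transcribed bases by the annotated start. The last is 30 bases before the start of Ifitm2 (chr7:140955988-140956017, minus strand), whose gene in the RefSeq table also has a longer span that includes them.
Bst2: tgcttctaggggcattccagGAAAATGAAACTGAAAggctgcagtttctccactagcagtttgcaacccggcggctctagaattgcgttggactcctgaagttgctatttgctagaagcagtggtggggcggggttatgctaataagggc
Ifitm3: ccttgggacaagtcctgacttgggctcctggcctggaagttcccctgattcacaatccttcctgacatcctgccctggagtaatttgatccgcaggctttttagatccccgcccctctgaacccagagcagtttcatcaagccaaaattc
Ifitm3, start: GAAAAGGAAActtctgaGAAACCGAAAct
Ifitm2: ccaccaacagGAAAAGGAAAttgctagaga

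In Ifitm3 both core matches lay after the start, at bases 3 to 12 and 20 to 29 counted from 1 at the start, and both extended to the longer form. The GAS letters of Ifitm3, at bases 14 to 22, overlapped both longer matches. In Bst2 the 2 core matches overlapped each other, at -130 to -121 and -124 to -115, and the first extended to the longer form. The GAS letters of Bst2, at -136 to -128, overlapped the first core match. Ifitm2 had 1 core match at -46 to -37 without the longer form. No core match was present in these windows of Ifitm1, Ifitm5, Ifitm6 and Ifitm7, and the letters elsewhere were not searched. The window of Ifitm1, like that of Ifitm2, lies within the longer span of its gene in the RefSeq table. A match describes the sequence and was not tested as a binding site.

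For basal expression, the question was which members gave a signal above background in the mock cells. Values are log2 levels from RMA, which removes background, puts the arrays on one distribution and reduces each probe set to 1 value. Background was taken as the 95th percentile of 1105 olfactory receptor genes on the same array, a family assumed to be silent in these cells, and it lay between 4.85 and 5.07. Ifitm2, Ifitm3 and Bst2 lay above it on all 4 arrays, Ifitm1 and Ifitm6 lay under it on all 4, and Ifitm5 lay above it on 1 mock array alone. Different probes bind with different strength, so a level was set against background on its own array and the members were not ordered by RNA amount.

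Ifitm3, which acts mainly in endosomes, had log2 levels of 8.87 and 8.92 on the mock arrays, at least 3.80 above background. Bst2 had 7.76 and 8.12 in mock cells, at least 2.69 above background, and Ifitm2, a close relative of Ifitm3, had 7.29 and 7.76, at least 2.22 above it. A signal for these 3 genes was thus present on both mock arrays. Ifitm1, which acts mostly at the cell surface, had 3.36 and 3.57 in mock cells. Ifitm6, a rodent member of the family, had 4.38 and 4.35, and Ifitm5 had 5.20 and 4.69. For Ifitm1 and Ifitm6, which lay under background on the AT90ES arrays too, a small change could go unseen.

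**Figure D1:**
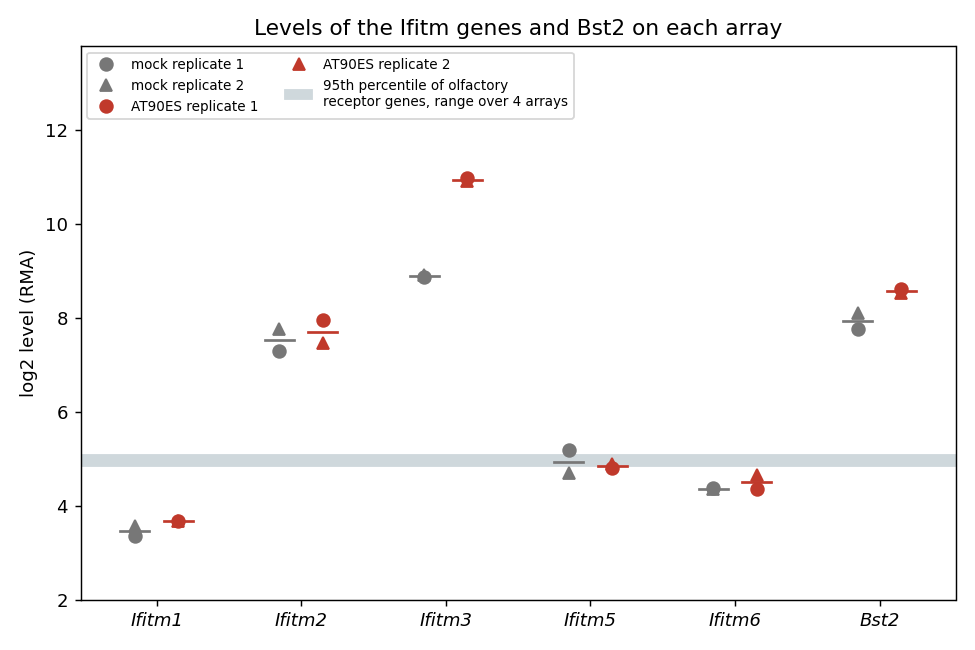
Log2 level (RMA) of each measured member on each of the 4 arrays; points are arrays, short lines are group means and the grey band is the range over arrays of the 95th percentile of olfactory receptor genes. Ifitm3 moved from 8.87 and 8.92 in mock to 10.98 and 10.92 in AT90ES cells, while both groups of Ifitm2 overlapped and Ifitm1 and Ifitm6 stayed under the band.

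After AT90ES, 1 of the 6 measured members rose, Ifitm3, 0 fell and 5 did not pass the test. Ifitm3 had log2 levels of 10.98 and 10.92 on the AT90ES arrays, against 8.87 and 8.92 in mock cells. Both AT90ES arrays lay at least 1.99 above both mock arrays, while arrays of the same group differed by 0.05 (mock) and 0.06 (AT90ES). Ifitm3 thus rose by 2.05 ± 0.12 on the log2 scale (SE, n = 2 arrays per group), with a 95% interval of 1.76 to 2.34. That is a 4.14-fold change (3.40 to 5.05), with an adjusted p = 0.00344 in limma's test over all genes. In the same test 0.415% of all genes were called higher (92 genes) and 0% lower, and 4.50% and 4.59% had an unadjusted p under 0.05 in the higher and lower direction. By size of rise, Ifitm3 was number 36 of the 22180 genes and number 35 of the 92 called. The call held in each of the 14 alternative settings tried, with an adjusted p from 3.67e-10 to 0.0396. In bulk RNA, more cells expressing a gene and more RNA per cell cannot be told apart.

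Bst2 had log2 levels of 8.63 and 8.54 on the AT90ES arrays, against 7.76 and 8.12 in mock cells. Both AT90ES arrays lay above both mock arrays, by at least 0.42, a margin close to the difference of 0.36 between the mock arrays. The log2 fold change was 0.64 ± 0.16 (SE), with an interval of 0.25 to 1.03, or 1.56-fold (1.19 to 2.04). The unadjusted p was 0.00705 and the adjusted p = 0.349 did not pass. With an intensity trend, in which limma lets the shared spread depend on the level, the adjusted p was 0.00831 and 1.94% of all genes were called higher. Over the 14 alternatives the adjusted p of Bst2 ranged from 0.00831 to 0.756, and it passed in 1. The value of Bst2 exceeded that of 98.7% of genes.

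Ifitm2 had 7.96 and 7.47 on the AT90ES arrays, against 7.29 and 7.76 in mock cells. The groups overlapped, and arrays of the same group differed by 0.47 (mock) and 0.49 (AT90ES), more than the group means did. Its log2 fold change was 0.19 ± 0.23 (SE), with an interval of -0.38 to 0.76 and an adjusted p = 0.856. The upper bound of that interval, a 1.69-fold rise, lay under the lower bound of the interval of Ifitm3. A test of one member's change against another's was not run. Close relatives in the family share sequence, and their levels are uncertain where a probe hybridises to more than 1 of them.

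The 3 dim members did not pass. Ifitm1 had 3.68 on both AT90ES arrays, above both mock arrays by at least 0.10, and its log2 fold change was 0.21 ± 0.13 (adjusted p = 0.694), which was 0.11 on dropping mock replicate 1 and 0.31 on dropping mock replicate 2. Ifitm6 had 4.37 and 4.66 in AT90ES cells, where the groups overlapped, and a log2 difference of 0.14 ± 0.14 (adjusted p = 0.815), which was 0.00074 on dropping AT90ES replicate 2 and 0.29 on dropping AT90ES replicate 1. Ifitm5 had 4.80 and 4.89, both between its own mock arrays, and a log2 difference of -0.10 ± 0.19 (adjusted p = 0.921). Both AT90ES arrays lay above both mock arrays for 3 of the 6 measured members (Ifitm3, Bst2 and Ifitm1), against 17.7% of all genes, and below them for 0, against 22.1%. The median log2 fold change of the 6 was 0.20, beside -0.02 for all genes.

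The probes shared by Ifitm7, the member outside the chromosome 7 cluster, and Bmerb1 showed 4.19 and 3.92 in mock and 4.12 and 4.25 in AT90ES cells on the first, and 5.54 and 5.01 in mock and 5.12 and 5.39 in AT90ES cells on the second. The groups overlapped on both, with log2 fold changes of 0.13 and -0.02 (adjusted p = 0.911 and 0.992 with every probe tested). The first lay under background on all 4 arrays.

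**Figure D2:**
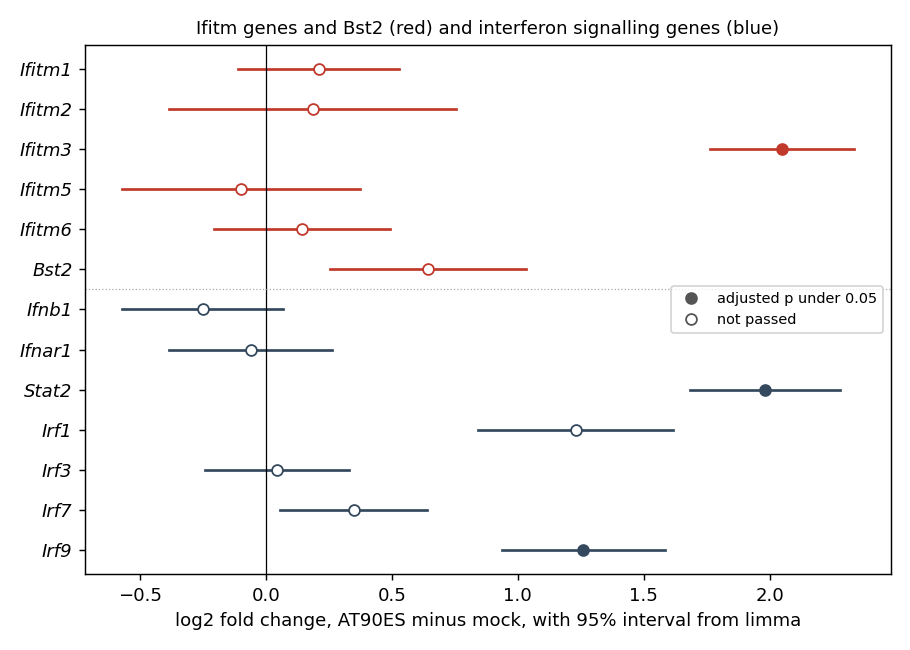
Log2 fold change, AT90ES minus mock, with its 95% interval from limma (n = 2 arrays per group) for the 6 measured members in red and 7 genes of interferon signalling in blue; filled points have an adjusted p under 0.05. The interval of Ifitm3 runs from 1.76 to 2.34 and that of Bst2 from 0.25 to 1.03, while those of the other 4 members include 0.

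**Figure D3:**
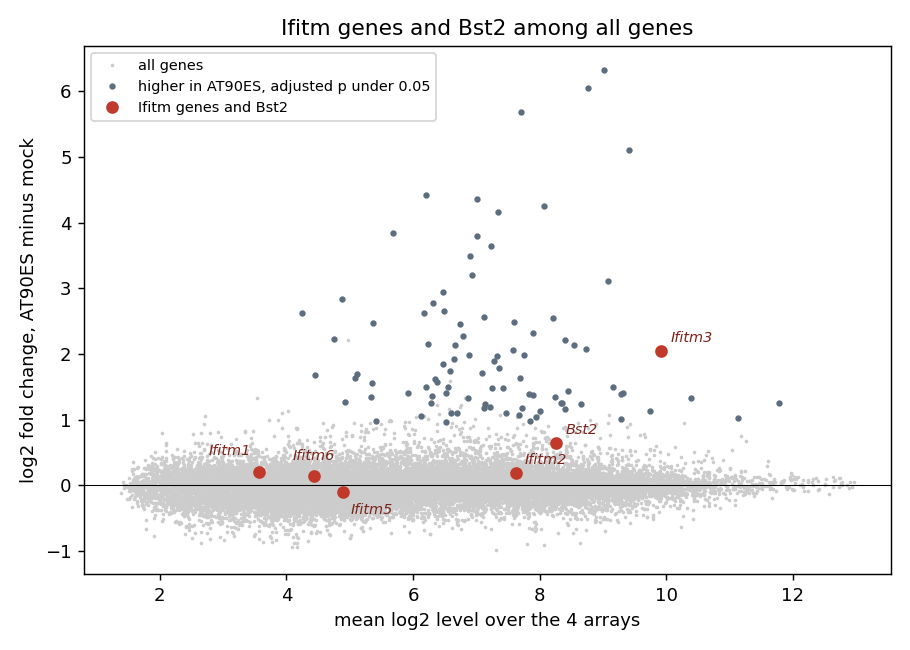
Log2 fold change, AT90ES minus mock, against the mean log2 level over 4 arrays for all 22180 genes in grey, with the 92 genes called higher in dark blue and the 6 measured members in red. Ifitm3 at 2.05 lies among the called genes, and Bst2 at 0.64 lies among the genes not called.

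Ifitm5, Ifitm2, Ifitm1, Ifitm3 and Ifitm6 follow each other in this order on chromosome 7 in the RefSeq gene table. Of the 10 protein-coding genes nearest to this cluster, 5 on each side, 10 were measured and 0 were higher or lower in limma, with 0 before adjustment (p under 0.05) and 0 in the trend fit. Their log2 fold changes ran from -0.21 to 0.10. Those next to the cluster, Pgghg, which encodes a glucosidase that acts on collagen sugars, and B4galnt4, a glycosyltransferase gene, stood at -0.06 and -0.02. Of the 10 nearest to Bst2, on chromosome 8, 8 were measured and 0 were higher or lower, also before adjustment and in the trend fit, between -0.20 and 0.19. Mvb12a, a subunit gene of the ESCRT-I complex that sorts membrane cargo and the first neighbour on one side, stood at -0.08. Of the 9 measured genes near Ifitm7, on chromosome 16, 0 were higher or lower, and 1, a gene model without an approved name at 0.94, was higher before adjustment (p under 0.05) and in the trend fit. Neighbours outside the general naming rule were named for their position alone.

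Other genes of the CD225 or dispanin family, to which the IFITMs belong, were measured for 8 of 8, and 0 were higher or lower in limma, also before adjustment and in the trend fit. Their median log2 fold change was -0.06 and their range -0.20 to 0.27. Tmem233 and Prrt2, the latter a synaptic gene, had the highest mean levels and stood at 0.05 and -0.19. Genes whose products modify, move or work with IFITM proteins or tetherin lay above background on all arrays for 17 of 17. None of the 17 was higher or lower in limma (0 before adjustment, 0 in the trend fit), a median of 0.05 and a range of -0.24 to 0.28. Nedd4 encodes a ubiquitin ligase that marks IFITM3 for turnover. Its levels were 12.11 ± 0.01 (SD) in mock and 12.11 in AT90ES cells, a log2 fold change of 0.00 ± 0.11 (SE). Vcp, an ATPase gene for the extraction of ubiquitin-marked proteins, stood at 0.16 ± 0.11 (adjusted p = 0.742).

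Among 14 other measured genes that restrict viral entry, fusion or release, 3 rose, 0 fell and 11 did not pass, with a median of 0.15. Rsad2, which encodes viperin, an enzyme that disturbs viral replication and budding, rose by 4.25 ± 0.12. Isg15, a ubiquitin-like modifier that interferes with particle release, rose by 4.16 ± 0.14. Its mock levels of 5.38 and 5.14 lay close above the background of 5.07 and 4.93 on those arrays, so the size of this rise is uncertain. Lgals3bp, a secreted glycoprotein gene, rose by 1.32 ± 0.11 (adjusted p = 0.0177). Lgals3bp lost its call with every probe tested (adjusted p = 0.139), which left 2 of the 14. It also lost its call whichever of the 4 arrays was dropped, with log2 fold changes of 1.29 to 1.35. In the main test 3 of 14 genes in that list and 1 of 6 measured members were called, where 0.415% of all genes were. Members and list were chosen with earlier results of these data known, so these shares cannot serve as a test of enrichment.

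Of 20 measured genes of interferon, its receptors and its signalling, 3 rose, 0 fell and 17 did not pass, with a median of 0.20. Stat2 had 5.89 and 5.90 in mock and 7.81 and 7.95 in AT90ES cells, a rise of 1.98 ± 0.12 (adjusted p = 0.00389). Irf9, the DNA-binding partner of STAT2 in ISGF3, rose by 1.26 ± 0.13 (adjusted p = 0.0308). Irf9 lost its call with every probe tested (adjusted p = 0.188) and with a replicate block whose numbers were crossed (0.0525). In each of these settings 2 of the 20 passed. Irf9 also lost its call in each of the 4 fits without an array, with log2 fold changes of 1.15 to 1.37. With the intensity trend 7 of the 20 were higher. Usp18, a feedback inhibitor at the interferon receptor, rose by 2.78 ± 0.16, a size that is uncertain because it lay under background on 1 mock array. Irf1, a factor that also binds ISRE-like elements, had a log2 fold change of 1.23 ± 0.16 with an adjusted p = 0.0622. It passed in 4 of the 14 alternatives: with the replicate block (0.0488), with the intensity trend (0.000517), with median-centred arrays (0.00251) and with dim genes left out (0.0230). Irf7 had a log2 fold change of 0.35 ± 0.12 and did not pass. Irf3, the factor activated by DNA sensing, stood at 0.04 and Ifnar1, a receptor chain, at -0.06. Ifnb1, the gene of interferon beta, lay under background on all 4 arrays. It had 3.22 ± 0.10 (SD) in mock cells and a log2 difference of -0.25 (adjusted p = 0.632). The intervals of Ifitm3 and Stat2, 1.76 to 2.34 and 1.68 to 2.28, covered nearly the same range. That of Irf9, 0.94 to 1.58, lay below the interval of Ifitm3, and that of Usp18, 2.38 to 3.17, lay above it.

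Of 44 measured genes that interferon raises in many cell types, a list assembled with earlier results of these data known, 29 rose, 0 fell and 15 did not pass, with a median of 1.63. Ifit1, an RNA-binding effector, rose by 6.05 and Ifih1, an RNA sensor, by 5.69. Mx2, a GTPase, rose by 4.41, and Rsad2, described above, belongs here too. In the alternatives that kept all 4 arrays, the number higher ran from 15 with every probe tested to 35 with the intensity trend. It was also smaller than 29 whichever array was dropped. Mx2 lay under background on both mock arrays and Ifih1 on 1, so the size of their rises is uncertain. Of the 44, 31 lay above background on all 4 arrays, so places within the list are approximate. As measured, the log2 fold change of Ifitm3 was smaller than that of 17 of the 44. Bst2 was exceeded by 34 of the 44, among them all 29 that rose, whose smallest value was 1.13. A call depends on the size of the change, so the place of Bst2 under the called genes follows in part from the threshold.

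**Figure D4:**
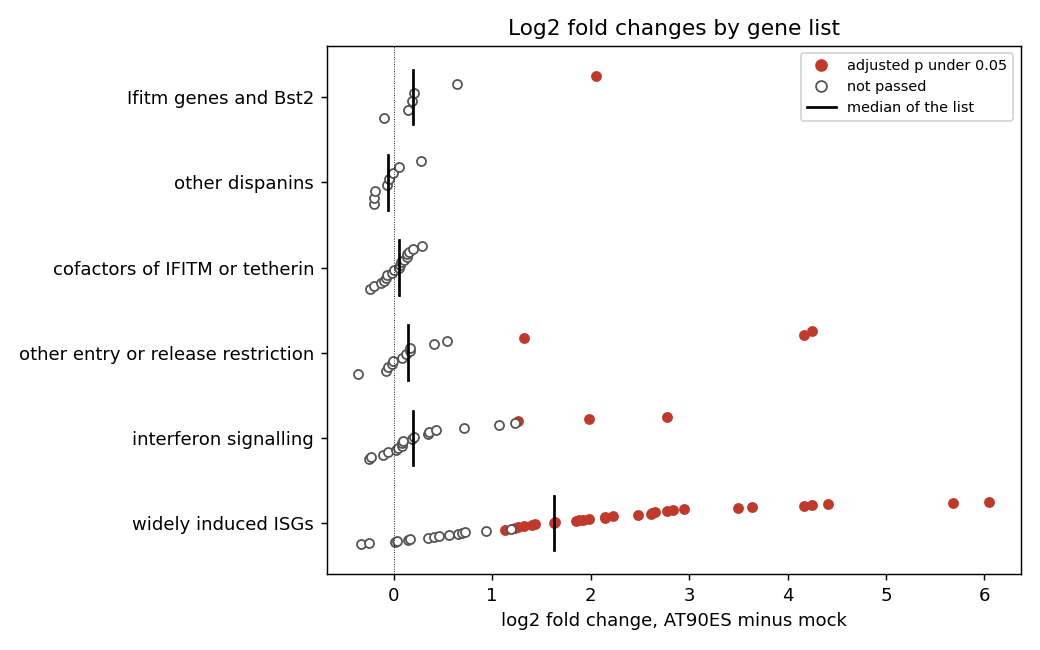
Log2 fold change, AT90ES minus mock, of each measured gene by list, with red points for an adjusted p under 0.05 and a black line at the median. The median is 0.20 for the Ifitm genes and Bst2, 0.05 for cofactors and 1.63 for widely induced interferon-stimulated genes (ISGs), where 29 of 44 points are red.

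The genes whose values moved most like those of a member were sought over the 4 arrays, as the smallest root mean square difference after each gene's own mock mean was subtracted. For Ifitm3 they were Sesn2, a stress-induced restraint on growth signalling (difference 0.05), and Nfkbie, an NF-kappaB inhibitor gene (0.06). Herc6, a ligase gene of the HERC family, followed (0.07). Sesn2 had log2 levels of 7.70 and 7.68 in mock and 9.76 and 9.79 in AT90ES cells. For Bst2 they were Carhsp1 (0.03), Chd2 (0.04) and Psph (0.04), with log2 fold changes of 0.67, 0.61 and 0.61, none past the threshold. For Ifitm2 they were Ttc27 (0.02), Lce1a1 (0.03) and Borcs6 (0.03), with values of 0.16, 0.17 and 0.20; Lce1a1 lay under background on all 4 arrays, so its value is no measured change. With 4 arrays in 2 groups, likeness of this kind describes a similar difference between groups and little else.

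Markers of the labelled cell type were present: 10 of 10 melanocyte genes lay above background on all arrays, with mean log2 levels over the list of 10.96 to 11.14. Dct and Tyrp1, enzymes of melanin synthesis, stood at -0.04 and 0.01, and 0 of the 10 were called, with 2 lower before adjustment and in the trend fit. Of the markers of other cells, 4 of 12 myeloid (Cd68 and Fcer1g the brightest, at -0.15 and -0.31), 2 of 11 lymphoid (Nkg7 and Prf1), 2 of 6 osteoblast (Alpl and Bglap), 2 of 8 germ cell (Prdm1 and Pou5f1) and 3 of 10 fibroblast and endothelial genes (Col1a1 and Col1a2) did so. None of these 47 genes was called higher or lower in limma, also in the trend fit; before adjustment 0 were higher, and 3 myeloid and 1 lymphoid genes were lower. Mean levels of the myeloid list were 4.75 and 4.82 in mock and 4.53 and 4.69 in AT90ES cells. Of the reference genes, Gapdh and Ywhaz stood at -0.02 and 0.08.

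**Figure D5:**
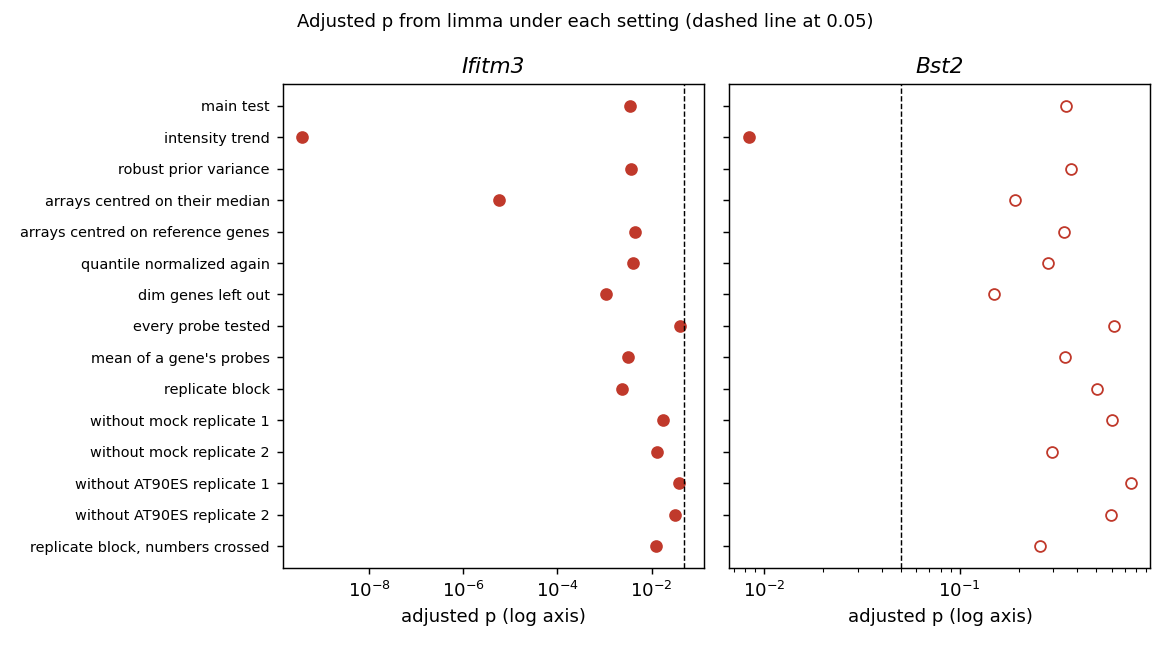
Adjusted p of Ifitm3 and Bst2 from limma under the main test and 14 other settings, on a log axis, with a dashed line at 0.05; filled points pass. Ifitm3 passes under each setting, up to an adjusted p of 0.0396, and Bst2 passes with an intensity trend alone, at 0.00831.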

How the data were processed

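The authors deposited log2 levels for 41345 probes. Per the submitters' processing notes they used RMA; which software and settings, and the genome build, are not given in the sources used here. RMA equalises arrays, so each fold change stands against the rest of the array. Per the labels' protocols, an array took 300 ng of total RNA. Platform annotation gave 1 symbol to 23521 probes, several to 1814 and none to 16010; 23328 of the first matched RefSeq GRCm38.p6 by gene ID, 0 under another symbol. For the 1082 genes with more than 1 probe, the brightest stood for the gene. The groups were compared in limma 3.58.1 (R 4.3.3; lmFit, eBayes), two-sided, Benjamini-Hochberg over 22180 genes, threshold 0.05, 2 residual and 3.70 prior degrees of freedom. An exact permutation test of 2 against 2 cannot go below 0.333. Steps were tested on simulated data, in 20 runs with 200 of 22180 genes changed. They recovered 92.6% of 2-fold changes but 20.8% of changes of a smaller simulated size. False calls stood at 7.36%, above the threshold of 0.05. A change under 2-fold, such as that measured for Bst2, may therefore go uncalled.

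Members and lists were chosen with earlier results of these data known. Named were the members, 8 set signalling genes where measured, up to 4 called genes per list (else the 2 brightest), and the 3 nearest patterns per member above background. Dtx3l, Gbp2, Oas1a, Irf5 and Ppia lay on probes of several symbols and were left out. Same-numbered arrays correlated at -0.222 across genes (deviations from group means), so numbers were not taken to pair arrays.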

Additional observations from a re-analysis of the deposited data

Results flagged for a closer look

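A probe that the annotation assigns to both Gbp2 and Gbp2b, and that therefore named no gene in the comparison, gave a signal above mock. Gbp2 is on the list of genes that restrict viral entry, fusion or release. The probe had log2 levels of 5.66 and 5.62 in mock and 8.51 and 8.42 in AT90ES cells, a log2 fold change of 2.83 ± 0.13 (SE), with an adjusted p = 0.0205 in limma with every probe tested. Which of the 2 genes it measured was not tested.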

How the results depend on the processing

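Ifitm3 kept its direction and call in the 14 alternatives, with log2 fold changes of 1.995 to 2.08. Bst2 passed with an intensity trend alone (0.64, adjusted p = 0.00831), which made the members higher 2 in place of 1. Against 92 genes higher and 0 lower, the counts were 431 and 162 with the trend and 172 and 4 with median-centred arrays. They were 165 and 6 with dim genes left out, and 30 and 0 over every probe. Over every probe more probes were tested, and the SE of Ifitm3 was also larger, 0.128 in place of 0.115. Its unadjusted p in limma was 2.28e-05 in place of 3.26e-06. The cause of the differences between these counts was not tested. Leaving out 1 array gave 32 to 47 genes higher (35 without AT90ES replicate 2, 32 without AT90ES replicate 1, 44 without mock replicate 2, 47 without mock replicate 1), fits that give the single remaining array the spread of its counterpart group. Without 1 array Ifitm1 ran from 0.11 to 0.31, Ifitm2 from -0.057 to 0.43, Ifitm5 from -0.36 to 0.16 and Ifitm6 from 0.00074 to 0.29, none past the threshold. With the replicate block 85 genes were higher and the log2 fold change of Ifitm3 was 2.05 (adjusted p = 0.00232). With the numbers crossed, an alternative chosen after the data were seen, 59 genes and 1 member were higher. With dim genes left out (above background on fewer than 2 arrays), Ifitm1, Ifitm5 and Ifitm6 gave no value. Signal near background limits what can be seen of these 3.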

Other observations

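The longer ISRE letters, GAAANNGAAACT, were present in the start windows of 56 of 16990 measured genes with a window (0.330%). Of these 56, 10 were higher in AT90ES cells in limma (17.9%), Ifitm3 among them, where 0.415% of all genes were. The other 46 did not pass, Bst2 among them. The median log2 fold change of the 56 was 0.07. Of the 73 genes called higher that had a window, 10 held these letters (13.7%). The log2 fold change of Ifitm3 was exceeded by 9 of the 56 and that of Bst2 by 12. The core letters were present in 657 measured genes, of which 18 were higher (2.74%). The GAS letters were present in 1555, of which 9 were higher (0.579%). Of the 73, 24.7% held the core and 12.3% the GAS letters, against 3.87% and 9.15% of measured genes with a window. These shares are descriptions and were not tested.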
